A study of Mus musculus musculus x Mus musculus castaneus with 8 samples.

Results

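Here 10 interferon-stimulated genes were followed through a drug experiment on mouse tail fibroblasts. They are the ubiquitin-like modifier gene Isg15, its protease gene Usp18, the genes of its conjugating enzymes Uba7, Ube2l6 and Herc6, the tetherin gene Bst2, the viperin gene Rsad2 with its neighbour Cmpk2, and Rtp4 and Xaf1. They were taken by name from the 24421 genes of the deposited table of composite raw counts, in which reads of both alleles are counted together. All 10 were in the table, and all 10 were among the 12643 genes that passed the filter on low counts.

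Total RNA was sequenced, with the strand of the transcript kept, from cultured fibroblasts of the tail of a female F1 mouse, a cross between Mus musculus and Mus castaneus. Plates of 15 cm were cultured for 72 h, with the drugs present from 24 h onwards. The 8 libraries form 4 groups of 2: 5azadC (5-aza-2'-deoxycytidine, which blocks the methylation of DNA), VX680 (which blocks the Aurora kinases of mitosis), 5azadC+VX680, and untreated cells. All groups received the same volume of drug and solvent together, made up with DMSO, so the untreated cells had DMSO. The study's title gives its question as a synergy, between DNA methylation and the Aurora kinases, in X chromosome reactivation. The labels give neither the drug doses nor whether replicates were separate cultures, so p-values measure only the spread between these libraries, which may be technical.

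Type I interferon acts through the receptor chains Ifnar1 and Ifnar2 and the kinases Jak1 and Tyk2 on a transcription factor complex that contains Irf9 and switches on a large set of antiviral genes. Isg15 is one of them: like ubiquitin it is joined to other proteins, by the activating enzyme (E1) Uba7, the conjugating enzyme (E2) Ube2l6 and, in mice, the ligase (E3) Herc6, and it is taken off again by Usp18, which also damps signalling at the receptor. Bst2 tethers budding enveloped viruses to the cell surface, and viperin, the product of Rsad2, is a radical SAM enzyme that converts CTP into a chain terminator of viral RNA synthesis. Fibroblasts are a classic cell type in which this response is studied.

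The libraries held 6908503 to 11169532 reads in genes. The cells carried the marks of fibroblasts: all 9 listed fibroblast markers had reads in each group, with summed levels of 18070 to 22250 CPM in 5azadC, 13230 to 13710 in VX680, 10990 to 11220 in 5azadC+VX680 and 31100 to 35170 in untreated libraries. CPM is a gene's reads scaled to a common library size, with the TMM factor of each library. These sums were thus lower in every drug group, where the 10 genes summed to 474 to 911.9 CPM in 5azadC, 82.3 to 94.55 in VX680 and 240.3 to 255 in 5azadC+VX680, against 37.67 to 46.15 in untreated libraries. Of the 8 fibroblast markers tested, Vim (log2 change 0.69 with 5azadC, 0.61 with VX680 and 0.84 with both) and Thy1 (0.87, 1.06 and 1.05) rose in all 3 drug groups, while 5 fell with 5azadC and 6 with VX680 and with both. The part of the fibroblast markers in the results was not tested, and in bulk RNA a change in the number of cells of a type and a change in RNA per cell cannot be told apart. Leukocyte markers summed to 16.39 to 21.26 CPM over 9 genes in 5azadC, 20.91 to 21.5 in VX680, 20.15 to 26.29 in 5azadC+VX680 and 16.42 to 19.13 in untreated libraries, and the T cell and macrophage markers Cd3e and Adgre1 had 0 reads in all 8. Of the 2 leukocyte markers tested, Cd68, a lysosomal protein gene used as a macrophage marker, rose 2.20-fold with 5azadC (adjusted p = 0.00361), 2.75-fold with VX680 (0.000437) and 3.46-fold with both (5.26e-05), and Lyz2 fell with VX680 (log2 -0.96, adjusted p = 0.0369) and with both (-1.68, 0.00191) and was at -0.81 with 5azadC (0.0788), all by edgeR. Their part in the results was not tested. Siglech, which marks plasmacytoid dendritic cells, the specialised interferon producers, also had 0 reads in all 8. The 4 endothelial markers summed to 1.226 to 2.194 CPM in 5azadC, 3.731 to 5.593 in VX680, 3.726 to 3.937 in 5azadC+VX680 and 0.6347 to 1.026 in untreated libraries. Of these, 2 were tested: both rose with VX680 (log2 2.24 and 2.56), and neither was called with 5azadC or with both drugs. The part of the endothelial markers in the results was not tested. The 4 keratinocyte markers summed to at most 2.663 CPM in any library.

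Treatment with 5azadC raised all 10 genes, where 22.6% of all genes tested rose. The modifier Isg15 was 74.5-fold and its protease Usp18 199.6-fold higher than in untreated cells, and the conjugating enzymes were 4.05-fold (Herc6), 5.05-fold (Uba7) and 5.27-fold (Ube2l6) higher. With both drugs the same 10 genes were present at 17.2% to 42.3% of their 5azadC level, and VX680 alone raised 5 of them (23.8% of all genes rose) to far lower levels. The plot of levels by library shows this order, which the next paragraphs give gene by gene.

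**Figure D1:**
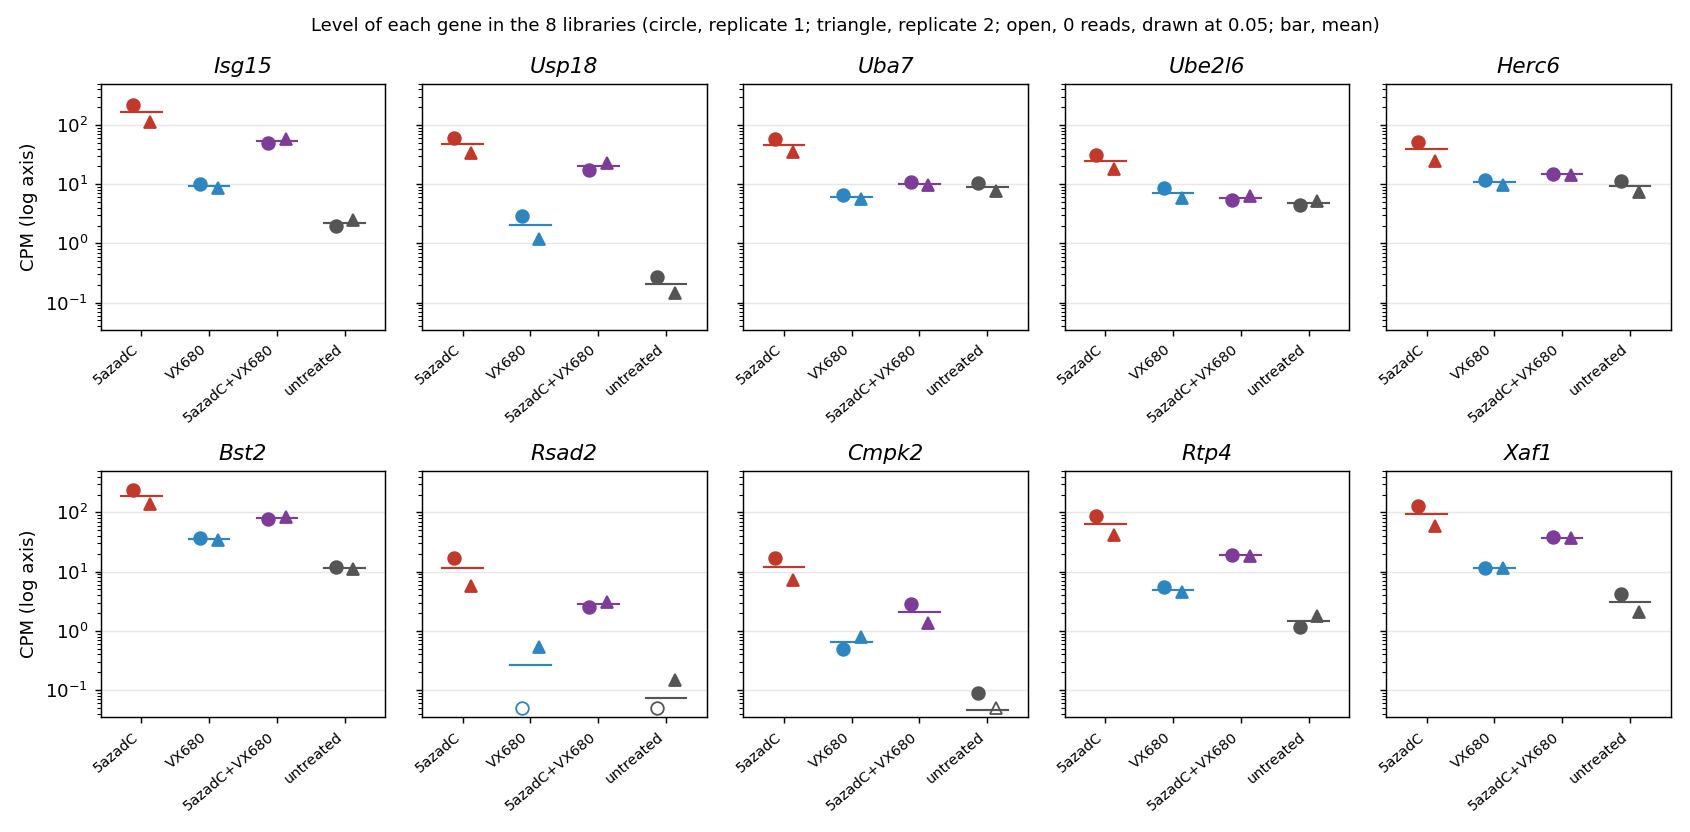
Level of each of the 10 genes in CPM (log axis) in the 8 libraries, with 1 panel for each gene. Circles are replicate 1, triangles replicate 2, bars the group means, and open symbols libraries with 0 reads, drawn at 0.05 CPM; each gene is highest in the 5azadC libraries, and Isg15, for example, is at 217 CPM in 5azadC replicate 1 and 1.995 CPM in untreated replicate 1.

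Isg15 (chromosome 4), the modifier itself, stood at 217 and 110.5 CPM in the 5azadC libraries, 10.1 and 8.52 CPM in VX680, 50.3 and 58.5 CPM in 5azadC+VX680 and 1.995 and 2.49 CPM in untreated cells (replicates 1 and 2 here and in each sentence of this kind). No groups overlapped: 5azadC was highest, the combination next, then VX680, and untreated cells were lowest. The means were 164 ± 75.4 CPM in 5azadC, 9.32 ± 1.12 in VX680, 54.4 ± 5.78 in 5azadC+VX680 and 2.24 ± 0.352 in untreated cells (SD, n = 2 each). Against untreated cells the fitted log2 change was 6.22 ± 0.34 with 5azadC (SE; edgeR quasi-likelihood test, Benjamini-Hochberg adjusted over all genes, adjusted p = 2.96e-08), 2.09 ± 0.44 with VX680 (adjusted p = 0.00157) and 4.63 ± 0.36 with both (adjusted p = 1.75e-07). Every adjusted p below is from this fit of all 8 libraries unless another test is named, and a change is called, or has passed, where it is under 0.05.

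Usp18 (chromosome 6), which cleaves Isg15 from its targets, was at 61.4 and 33.5 CPM in 5azadC, 2.94 and 1.199 CPM in VX680, 17.2 and 22.8 CPM in 5azadC+VX680 and 0.272 and 0.147 CPM in untreated cells. The groups again kept apart in the same order, from a base of only 3 and 1 reads in the untreated libraries. Its log2 change against untreated cells was 7.64 ± 0.52 with 5azadC (adjusted p = 1.64e-07), 3.20 ± 0.81 with VX680 (adjusted p = 0.00524) and 6.39 ± 0.56 with both (adjusted p = 5.67e-07). The VX680 value rested on replicate 1: without it the change was 2.34 and the call was lost (adjusted p = 0.0973).

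The conjugating enzymes were raised by 5azadC, and in this fit neither VX680 nor the combination moved them past the threshold against untreated cells. Isg15 had passed in all of these comparisons. The difference between genes was not tested. Uba7 (chromosome 9), the E1 enzyme dedicated to Isg15, was at 58.9 and 34.6 CPM in 5azadC, 6.68 and 5.59 in VX680, 10.8 and 9.66 in 5azadC+VX680 and 10.6 and 7.62 in untreated cells. The 5azadC libraries lay above all others, the combination overlapped with untreated cells, and both VX680 libraries were below them. Its log2 change was 2.34 ± 0.25 with 5azadC (adjusted p = 8.79e-06), -0.58 ± 0.29 with VX680 (adjusted p = 0.116) and 0.14 ± 0.28 with both (adjusted p = 0.688). The lower VX680 level of Uba7 was called without a filter on low counts (adjusted p = 0.0469) and without either 5azadC library (adjusted p = 0.0431 and 0.0305).

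Ube2l6 (chromosome 2), the E2 enzyme, had 31.7 and 18.2 CPM in 5azadC, 8.54 and 5.86 in VX680, 5.48 and 6.35 in 5azadC+VX680 and 4.44 and 5.13 in untreated cells. VX680 and the combination overlapped here, and both stood slightly above the untreated libraries. The log2 change was 2.40 ± 0.30 with 5azadC (adjusted p = 2.93e-05), 0.62 ± 0.32 with VX680 (adjusted p = 0.132) and 0.32 ± 0.34 with both (adjusted p = 0.445).

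Herc6 (chromosome 6), the mouse ligase, was at 52.3 and 25.1 CPM in 5azadC, 11.8 and 9.86 in VX680, 14.9 and 14.5 in 5azadC+VX680 and 11.4 and 7.33 in untreated cells. VX680 and untreated libraries overlapped, and the combination lay just above both. The log2 change was 2.02 ± 0.30 with 5azadC (adjusted p = 0.000131), 0.18 ± 0.32 with VX680 (adjusted p = 0.678) and 0.61 ± 0.32 with both (adjusted p = 0.119). The last of these passed in other fits of Herc6, at adjusted p = 0.033 with a replicate block, 0.0149 without a filter on low counts, 0.0396 with only those 2 groups fitted, and 0.0242 and 0.0193 without 5azadC replicate 1 or 2. In the GENCODE M21 annotation an unnamed transcript, Gm45193, shares 1269 exonic bases with Herc6 on the same strand, so reads of the pair cannot be told apart there. The length shared on the same strand is 296 bases for Rtp4 and 77 for Uba7. Usp18 shares 124 bases with a gene on the opposite strand only, and the strand was kept in sequencing.

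Bst2 (chromosome 8) encodes tetherin. It had 243.5 and 139 CPM in 5azadC, 37.1 and 33.8 in VX680, 78.9 and 82.9 in 5azadC+VX680 and 12.0 and 10.99 in untreated cells. The 4 groups did not overlap and the replicates of each drug group other than 5azadC lay close together. Bst2 was the gene of the 10 with the highest level per length in untreated cells, at 15.1 ± 0.908 RPKM (CPM per 1000 bases of transcript), ahead of Ube2l6 at 3.47 ± 0.352, Isg15 at 2.98 ± 0.467 and Uba7 at 2.91 ± 0.673 RPKM (SD, n = 2); the last 3 did not differ beyond that spread. With 5azadC, Bst2 at 252 ± 97.0 RPKM and Isg15 at 218 ± 100.3 RPKM were the most abundant of the 10 and could not be ranked against each other, while the other 8 genes lay between 3.03 RPKM for Rsad2 and 40.8 RPKM for Rtp4. The log2 change of Bst2 was 4.05 ± 0.23 with 5azadC (adjusted p = 3.68e-08), 1.62 ± 0.24 with VX680 (adjusted p = 9.43e-05) and 2.81 ± 0.23 with both (adjusted p = 2.87e-07).

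Rsad2 and Cmpk2 lie next to each other on chromosome 12, on opposite strands and 12.8 kb apart in GRCm38 with no protein-coding gene between them. Both were near silent without drug. Rsad2 had 155 and 41 reads in 5azadC, 0 and 4 in VX680, 18 and 22 in 5azadC+VX680 and 0 and 1 in untreated cells. Cmpk2, which encodes a mitochondrial nucleotide kinase, had 153 and 53 reads in 5azadC, 5 and 6 in VX680, 20 and 10 in 5azadC+VX680 and 1 and 0 in untreated cells. Since the untreated libraries held 1 read of each gene, changes are given as ratios of summed reads per library size with 95% intervals that cover counting error only.

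With 5azadC, Rsad2 was 215 times the untreated level (95% interval 38.2 to 8541; adjusted p = 5.44e-05) and Cmpk2 226 times (40.1 to 8975; adjusted p = 9.33e-06). With both drugs the ratio was 49.7 for Rsad2 (8.43 to 2013; adjusted p = 0.00199) and 37.3 for Cmpk2 (6.20 to 1522; adjusted p = 0.0013), so both genes rose there too. After VX680 alone neither passed: Rsad2 had a ratio of 4.04 (0.399 to 199; adjusted p = 0.472), with overlapping groups, and Cmpk2 one of 11.1 (1.61 to 478; adjusted p = 0.0597), with every VX680 library above the untreated ones. The Cmpk2 value was called with a replicate block (adjusted p = 0.0294), without a filter on low counts (0.00843), with limma on the authors' signal (0.0178) and without either 5azadC library (0.0367 and 0.0276).

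Rtp4 (chromosome 16), a chaperone of receptor transport to the cell surface, was at 86.1 and 41.8 CPM in 5azadC, 5.40 and 4.53 in VX680, 19.4 and 18.5 in 5azadC+VX680 and 1.18 and 1.76 in untreated cells. Xaf1 (chromosome 11), whose product binds the apoptosis inhibitor Xiap, was at 127 and 58.0 CPM in 5azadC, 11.5 and 11.6 in VX680, 38.0 and 37.4 in 5azadC+VX680 and 4.17 and 2.05 in untreated cells. Both genes kept the 4 groups apart in the order of Isg15. For Rtp4 the log2 change was 5.50 ± 0.37 with 5azadC (adjusted p = 1.63e-07), 1.82 ± 0.47 with VX680 (adjusted p = 0.00654) and 3.73 ± 0.40 with both (adjusted p = 3.75e-06); for Xaf1 it was 4.802 ± 0.36 (adjusted p = 3.96e-07), 1.80 ± 0.42 (adjusted p = 0.0032) and 3.50 ± 0.38 (adjusted p = 3.44e-06). The VX680 call for Rtp4 was lost without VX680 replicate 1 (adjusted p = 0.0505) and without untreated replicate 1 (adjusted p = 0.0997). Without untreated replicate 1 the Xaf1 values moved to 5.47 with 5azadC, 2.46 with VX680 and 4.17 with both, all still called.

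Counted together, 10 of 10 genes rose with 5azadC, beside 22.6% of all genes that rose and 19.6% that fell, and in all 10 the 5azadC libraries lay above the untreated ones, which 34.8% of all genes did. Their median log2 change was 5.15, against 0.00164 over all genes tested. With VX680, 5 of 10 rose (Isg15, Usp18, Bst2, Rtp4 and Xaf1), beside 23.8% of all genes that rose and 22.4% that fell, and the median was 1.78 against 0.00886. In 7 of 10 the VX680 libraries lay above the untreated ones (38.4% of all genes) and in 1, Uba7, below them (37.1%). With both drugs 7 of 10 rose, all but the conjugating enzymes Uba7, Ube2l6 and Herc6, beside 28.4% of all genes that rose and 27.3% that fell, with a median of 3.62 against 0.0128 and 9 of 10 above the untreated libraries (39.5% of all genes). These 3 comparisons share the untreated libraries. Without VX680 replicate 1, Usp18 and Rtp4 lost their VX680 calls, and fewer of all genes rose as well. Their log2 values were then 2.34 and 1.67, beside 3.20 and 1.82 in the reported fit.

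**Figure D2:**
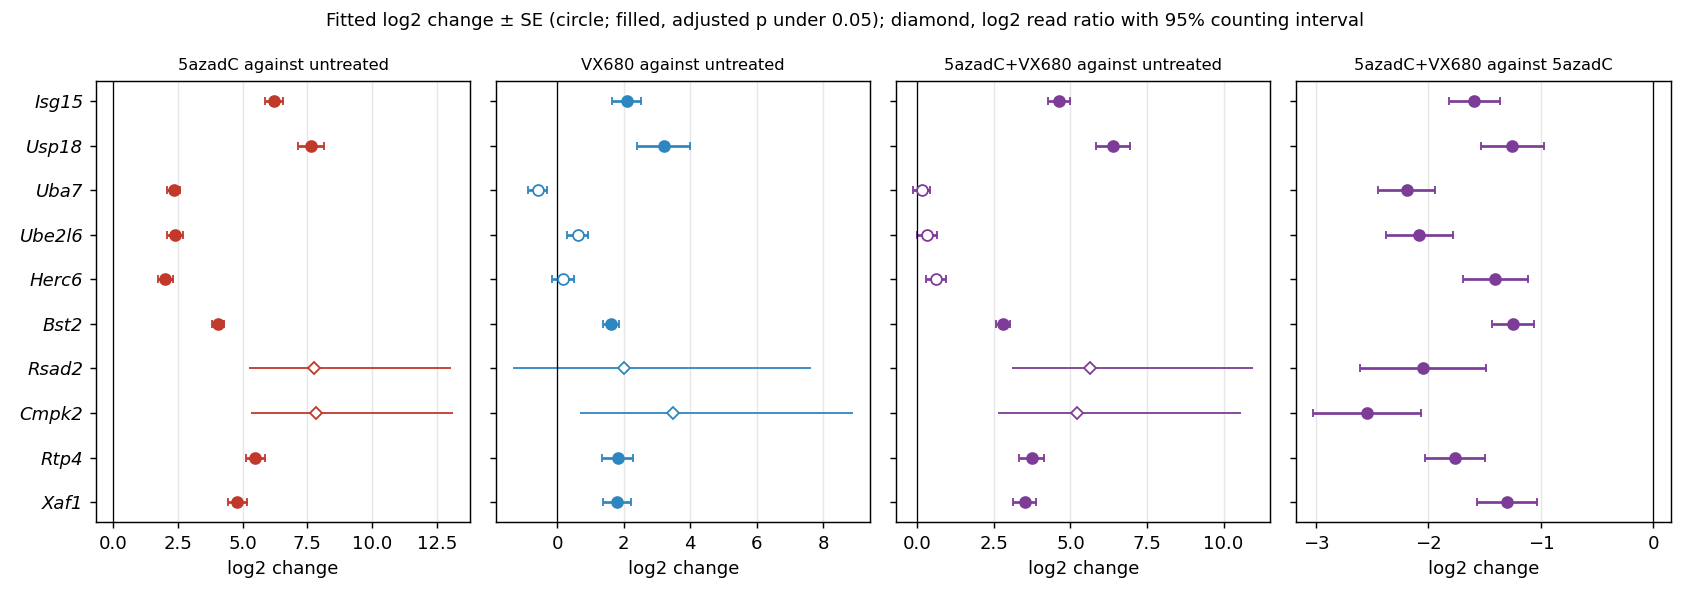
Log2 change (horizontal axes) of the 10 genes in 4 comparisons, with 5azadC, VX680 and 5azadC+VX680 each against untreated cells and, at the right, 5azadC+VX680 against 5azadC. Circles are fitted changes ± SE, filled where adjusted p was under 0.05. Diamonds are log2 read ratios with 95% counting intervals for Rsad2 and Cmpk2 in the comparisons with untreated cells. All 10 values lie above 0 at the left (Herc6, the lowest, at 2.02) and all 10 below 0 at the right (Usp18 and Bst2 at -1.25, Cmpk2 at -2.54).

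Adding VX680 to 5azadC lowered all 10 genes. Against 5azadC alone, Isg15 fell by 1.59 ± 0.23 in log2 (adjusted p = 0.000224), to 33.2% of its 5azadC mean, and Usp18 by 1.25 ± 0.28 (adjusted p = 0.00538), to 42.1%. The enzymes fell as well: Uba7 by 2.19 ± 0.25 (adjusted p = 4.3e-05), Ube2l6 by 2.08 ± 0.30 (adjusted p = 0.000227) and Herc6 by 1.41 ± 0.29 (adjusted p = 0.00329). Bst2 fell by 1.25 ± 0.19 (adjusted p = 0.00033), Rsad2 by 2.05 ± 0.56 (adjusted p = 0.0164), Cmpk2 by 2.54 ± 0.48 (adjusted p = 0.00175), Rtp4 by 1.76 ± 0.27 (adjusted p = 0.00035) and Xaf1 by 1.30 ± 0.27 (adjusted p = 0.00319). In all 10 genes both combination libraries lay below both 5azadC libraries. Over all genes tested 14.8% fell, 9.98% rose and 31.4% lay wholly below, and the median log2 change was -1.68 for the 10 genes against -0.0041 for all.

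The 5azadC replicates differed in these genes. Replicate 1 was 1.70 to 3.07 times replicate 2 in all 10 (median 2.01), and at least 1.5 times in each, whereas 7.52% of 12555 genes with reads in both libraries were 1.5 times higher in replicate 1 and their median ratio was 1.01. In the other groups 1.5-fold differences were fewer. They were 2 of 9 genes with reads in both VX680 libraries, 1 of 10 in the combination and 3 of 8 in untreated cells. In VX680 1 gene was higher in each replicate, and elsewhere replicate 1 was the higher. Over all genes 3.92% in VX680, 4.46% in the combination and 5.475% in untreated cells were 1.5 times higher in replicate 1. Usp18, among those in untreated cells, had only 3 and 1 reads there. Without 5azadC replicate 1, all 10 genes still rose against untreated cells, with Herc6 at 1.38, Rtp4 at 4.88 and Xaf1 at 4.13 in log2. In that fit 9 of 10 still fell when VX680 was added, with smaller values: Isg15 fell by 1.03, Bst2 by 0.79, Herc6 by 0.78, Cmpk2 by 1.80, Rtp4 by 1.15 and Xaf1 by 0.63, while Rsad2 lost its call (-1.02, adjusted p = 0.267). The value of Cmpk2 without combination replicate 1 was -3.14. Rsad2 also lost it without either combination library (adjusted p = 0.124 and 0.0949), and Usp18 without combination replicate 1 (adjusted p = 0.0779).

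In the reverse comparison, 5azadC added on top of VX680, 6 of 10 genes rose, beside 2.45% of all genes, and 9 of 10 lay wholly above the VX680 libraries (27.6% of all genes). Isg15 rose by 2.53 ± 0.28 in log2 (adjusted p = 0.000281), Usp18 by 3.19 ± 0.38 (adjusted p = 0.000521), Bst2 by 1.19 ± 0.20 (adjusted p = 0.00397), Rtp4 by 1.92 ± 0.33 (adjusted p = 0.00404), Xaf1 by 1.71 ± 0.31 (adjusted p = 0.00524) and Rsad2, with 4 reads in VX680, by 3.52 ± 0.95 (adjusted p = 0.0416). Not called were Cmpk2 at 1.72 ± 0.68 (adjusted p = 0.168) and the 3 enzymes, Uba7 at 0.73 (adjusted p = 0.178), Ube2l6 at -0.30 (adjusted p = 0.662) and Herc6 at 0.43 (adjusted p = 0.489). Without either VX680 or either combination library fewer of the 10 genes were called, and so were fewer of all genes. Isg15 and Usp18 were called in all of these fits, and Xaf1 and Rsad2 in none of them. With each library left out in turn, log2 values ran from 1.69 to 1.71 for Xaf1 and 1.12 to 1.26 for Bst2. They ran from 1.81 to 2.06 for Rtp4, 2.42 to 2.67 for Isg15 and 2.75 to 4.04 for Usp18. Without VX680 replicate 1 the value was 4.04 for Usp18 and 2.35 for Rsad2 (adjusted p = 0.358), and Rsad2 also lost its call without either untreated library (adjusted p = 0.0611 and 0.0602).

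Set directly against VX680, 5azadC gave higher levels of all 10 genes, called beside 9.33% of all genes, with no overlap in any (29.1% of all genes). The median log2 difference was 3.34 (0.00624 over all genes), and it ran from 1.78 ± 0.28 for Ube2l6 (adjusted p = 0.000811) to 5.57 ± 0.80 for Rsad2 (adjusted p = 0.000379), whose VX680 libraries held 0 and 4 reads. Uba7, whose VX680 level was the lowest of the 4 groups, differed by 2.92 ± 0.27 (adjusted p = 1.08e-05). Without 5azadC replicate 1 the difference was 1.21 for Herc6, 4.53 for Rsad2, 3.51 for Cmpk2, 3.06 for Rtp4 and 2.33 for Xaf1, and without VX680 replicate 1 it was 5.30 for Usp18 and 4.40 for Rsad2, all still called. With limma on the authors' signal Herc6 lost its call (1.63, adjusted p = 0.0616).

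Whether the drugs' effects added on the log2 scale was tested as the change with 5azadC in the presence of VX680 minus that in its absence. This interaction was negative and called for 9 of 10 genes, beside 10.6% of all genes: the combined change was less than the sum of the single ones. It was -3.69 ± 0.49 for Isg15 (adjusted p = 0.000239), -4.45 ± 0.83 for Usp18 (adjusted p = 0.00286), -2.87 ± 0.30 for Bst2 (adjusted p = 3.91e-05), -3.58 ± 0.54 for Rtp4 (adjusted p = 0.000649) and -3.10 ± 0.50 for Xaf1 (adjusted p = 0.001). For the enzymes it was -1.61 ± 0.39 for Uba7 (adjusted p = 0.0133), -2.70 ± 0.44 for Ube2l6 (adjusted p = 0.00111) and -1.59 ± 0.44 for Herc6 (adjusted p = 0.0254). For Cmpk2 the adjusted p was 0.0107 and for Rsad2 0.233, with 1 read of each gene in untreated cells.

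Some interaction calls were lost when 1 library was left out. Herc6 lost its call when any 1 of 6 libraries was left out, all but 5azadC replicate 2 and untreated replicate 1. Its value was -1.32 without untreated replicate 2 and -1.45 to -1.71 without a VX680 or combination library (-1.59 in the reported fit). Without a VX680, combination or untreated library fewer of all genes were called lower as well. Uba7 lost its call without VX680 replicate 1 (-1.47), combination replicate 2 (-1.53) or untreated replicate 2 (-1.40), beside -1.61 in the reported fit. Usp18 lost it without VX680 replicate 1 (-3.599, adjusted p = 0.0622) and Cmpk2 without VX680 replicate 2 (adjusted p = 0.065). Without 5azadC replicate 1 the value was -0.95 for Herc6, -2.96 for Rtp4 and -2.42 for Xaf1, and without untreated replicate 1 it was -3.76 for Xaf1.

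Other enzymes are also known to add or remove Isg15. Of 7 symbols on a list of further ligases and proteases, 6 were tested: with 5azadC 3 rose and none fell, led by Trim25 and followed by Usp5 (0.53 ± 0.09 in log2, adjusted p = 0.000347) and Usp14 (0.41 ± 0.15, adjusted p = 0.0388). Trim25, a ligase induced by interferon that also activates the RNA sensor RIG-I, was at 187 and 112.5 CPM in 5azadC, 68.2 and 60.2 in VX680, 121.5 and 126 in 5azadC+VX680 and 40.3 and 41.8 in untreated cells. Its groups kept apart, except that 5azadC replicate 2 lay below both combination libraries. The log2 change of Trim25 was 1.87 ± 0.18 with 5azadC (adjusted p = 3.43e-06), 0.65 ± 0.19 with VX680 (adjusted p = 0.0106) and 1.60 ± 0.18 with both (adjusted p = 6.31e-06). With VX680 4 of 6 rose and with both drugs 4 of 6, none falling; adding VX680 to 5azadC raised 2, Usp2 (0.59 ± 0.16, adjusted p = 0.0134) and Usp14 (0.53 ± 0.14, adjusted p = 0.016), and lowered none. The list's median log2 change was 0.29 with 5azadC, 0.48 with VX680 and 0.37 with both.

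In the type I interferon pathway 11 of 12 listed genes were tested, and with 5azadC 5 rose and 1 fell. Those with the smallest p were the master regulator of interferon genes Irf7 (6.13 ± 0.45 in log2, adjusted p = 3.27e-07) and Irf9 (2.20 ± 0.19, adjusted p = 1.06e-06). Irf7 followed Isg15, with 156 and 67.9 CPM in 5azadC, 4.42 and 3.596 in VX680, 18.3 and 24.8 in 5azadC+VX680 and 0.907 and 2.64 in untreated cells. The receptor chain Ifnar1 was the gene that fell (-0.40 ± 0.11, adjusted p = 0.00884). With VX680 1 rose, Irf9 (0.69 ± 0.19, adjusted p = 0.00925), and 3 fell, among them both receptor chains, Ifnar1 (-0.64 ± 0.11, adjusted p = 0.000291) and Ifnar2 (-0.62 ± 0.12, adjusted p = 0.001). With both drugs 4 rose and 3 fell, and against 5azadC alone 6 of 11 fell and none rose, led by Irf7 (-2.38 ± 0.32, adjusted p = 0.000137). The interferon gene Ifnb1 was not tested: it had 0 reads in both 5azadC and both VX680 libraries, 2 and 0 in the combination and 4 and 2 in untreated cells, so no rise of its RNA was detectable at this depth.

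A further list held 15 relatives and partners of the 10 genes, among them ubiquitin genes and their E1 and E2 enzymes, other Herc and Rtp genes and Xiap. Of these 12 were tested, and their log2 changes with 5azadC lay between -0.25 and 0.50 (median 0.08). In this comparison 2 rose, the ubiquitin E1 gene Uba1 (0.39 ± 0.09, adjusted p = 0.00222) and the E2 gene Ube2l3 (0.40 ± 0.10, adjusted p = 0.00475), the nearest relatives of Uba7 and Ube2l6, and 1 fell, Herc2 (-0.25 ± 0.09, adjusted p = 0.0379). With VX680 2 rose and 3 fell, with both drugs 1 rose and 3 fell, and adding VX680 to 5azadC lowered 1, Ube2l3 (-0.32 ± 0.10, adjusted p = 0.0278).

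The 10 genes were compared with one another by the distance of each gene's centred log2 CPM over the 8 libraries from their own median profile, as a root mean square. Rtp4 was nearest at 0.277, followed by Xaf1 at 0.31, Bst2 at 0.328, Cmpk2 at 0.417, Isg15 at 0.609 and Rsad2 at 0.711. Usp18 at 1.02 had wider swings, and the enzymes Herc6 at 1.07, Uba7 at 1.1 and Ube2l6 at 1.14 narrower ones. Among 11568 other genes, with a median distance of 1.77, the 6 nearest to this profile were Ifit1 (0.321), Ifih1 (0.332), Oas1b and Phf11d (0.361 each), Ifi203 (0.398) and Igtp (0.416). These distances are a description over 8 libraries of 4 groups, with no test.

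**Figure D3:**
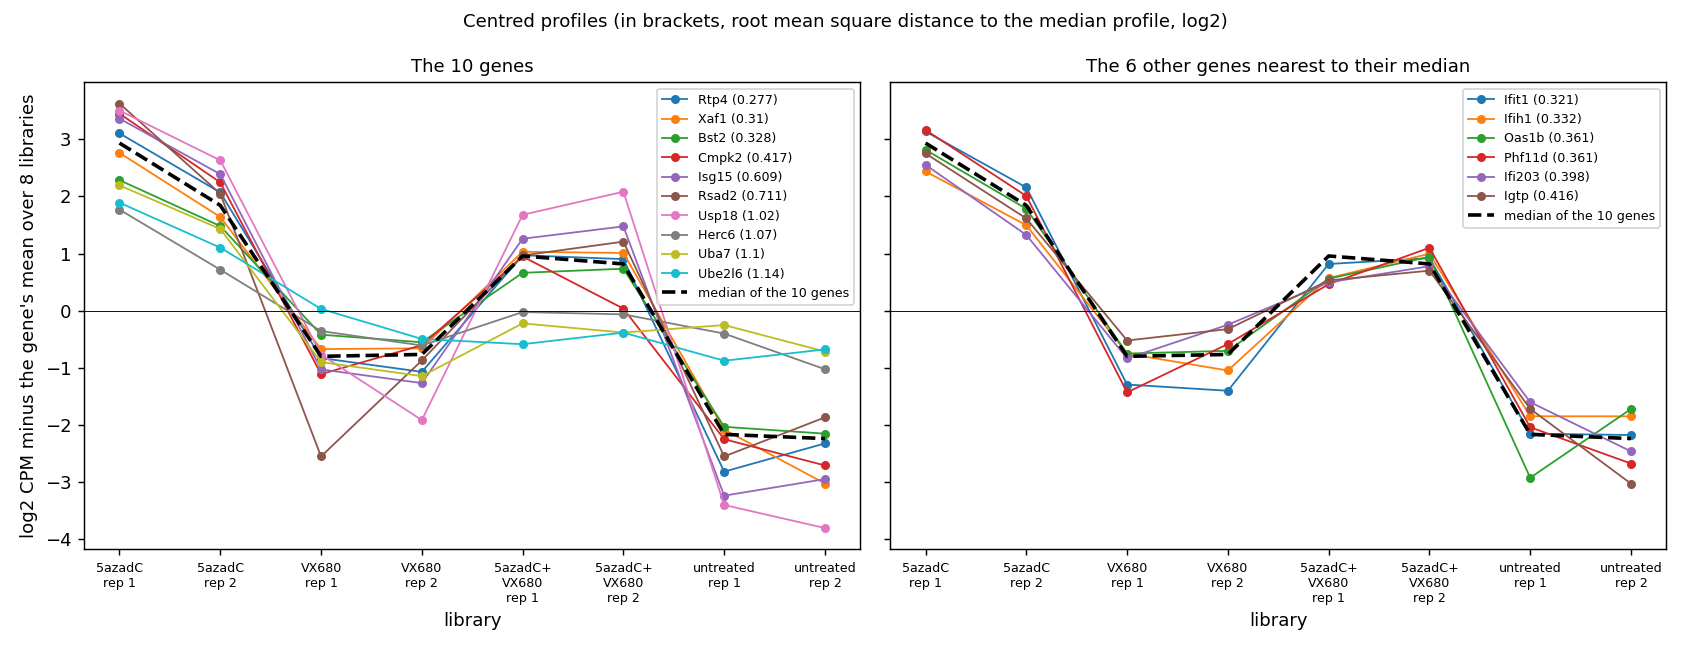
Log2 CPM of each gene minus its own mean over the 8 libraries (vertical axis), by library (horizontal axis), for the 10 genes at the left and the 6 other genes nearest to their median at the right; the dashed line is the median of the 10 genes. Herc6, Uba7 and Ube2l6 stay within a narrow range in the VX680, combination and untreated libraries, while the other 7 genes span a wider one; all but Uba7 are higher in both combination libraries than in either untreated one.

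In this hybrid, reads that carry a variant can be assigned to the musculus (mus) or castaneus (cas) allele. The mus share was tested for the 7 of 10 genes with a mean of at least 10 such reads in a library (Isg15, Usp18, Uba7, Herc6, Bst2, Rsad2 and Rtp4), within a fit of 10301 genes, and a gene's value is given only for groups with at least 10 of its allelic reads in sum. Over autosomal genes the median log2 ratio of mus to cas reads was -0.174 to -0.188 in the 4 groups, a slight excess of cas reads.

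Bst2 gave more mus reads in every group. The mus share was 65.6% and 75.4% in 5azadC (95% Clopper-Pearson intervals 62.8 to 68.3 and 71.4 to 79.1), 85.2% and 75.7% in VX680, 80.1% and 75.7% in 5azadC+VX680 and 72.9% and 77.8% in untreated cells. The log2 ratio of mus to cas was 1.23 ± 0.16 in 5azadC (adjusted p = 1.04e-08), 2.09 ± 0.23 in VX680 (adjusted p = 3.11e-10), 1.82 ± 0.19 in 5azadC+VX680 (adjusted p = 7.85e-11) and 1.54 ± 0.37 in untreated cells (adjusted p = 0.000624). Genes with more mus reads made up 11% of all tested in 5azadC, 11.3% in VX680, 11.1% in the combination and 11.3% in untreated cells.

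Herc6 gave more cas reads in every group, with a mus share of 21.5% and 25.4% in 5azadC, 12.7% and 37.9% in VX680, 17.0% and 30.2% in 5azadC+VX680 and 14.0% and 16.7% in untreated cells. All 8 libraries were below 50%. Its log2 ratio was -1.74 ± 0.37 in 5azadC (adjusted p = 0.000175), -1.78 ± 0.48 in VX680 (adjusted p = 0.00242), -1.71 ± 0.46 in 5azadC+VX680 (adjusted p = 0.00243) and -2.49 ± 0.55 in untreated cells (adjusted p = 0.000232). Genes with more cas reads made up 27.2%, 27%, 26.8% and 26.9% of all tested in these groups. The call was lost in each group without its replicate 1, and fewer of all genes were called with more cas reads there as well. In those fits the ratio of Herc6 was -1.55 in 5azadC, -0.70 in VX680, -1.2 in the combination and -2.28 in untreated cells. In VX680 it was -2.75 without replicate 2.

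Of the other 5 genes, Usp18 had more cas reads in 5azadC (mus share 28.8% and 22.7%, log2 ratio -1.48 ± 0.50, adjusted p = 0.0154). That call was lost without either 5azadC library, where the ratio was -1.75 and -1.30 and fewer of all genes were called as well. In the combination the Usp18 share was 30.4% and 29.7% (-1.21 ± 0.59, adjusted p = 0.104). Rtp4 had more mus reads in VX680 (57.5% and 92.3%; 1.35 ± 0.47, adjusted p = 0.0176), which rested on replicate 2: without it the ratio was 0.43 (adjusted p = 0.624), and without replicate 1 it was 3.51. In the combination the Rtp4 share was 67.0% and 59.3% (0.78 ± 0.32, adjusted p = 0.0511), which passed without 5azadC replicate 2, either VX680 library or either untreated library (adjusted p = 0.0306 to 0.0498) and with a minimum of 5 allelic reads (0.0431), and not without either combination library (0.431 and 0.081). Isg15, Uba7 and Rsad2 were not called in any group with all libraries fitted, although Isg15 in 5azadC lay near the threshold (-0.33 ± 0.14, adjusted p = 0.0566). The median over autosomal genes in 5azadC was -0.188. Isg15 was called in 5azadC without either untreated or either combination library. It was also called in the combination without combination replicate 2 (-0.64, the lowest of -0.64 to -0.073 with each library left out). The mus share of Isg15 was 47.3% and 40.5% in 5azadC, 38.8% and 48.0% in VX680, 39.1% and 48.7% in 5azadC+VX680 and 60.0% and 76.5% in untreated cells, where 20 and 17 reads were assigned.

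**Figure D4:**
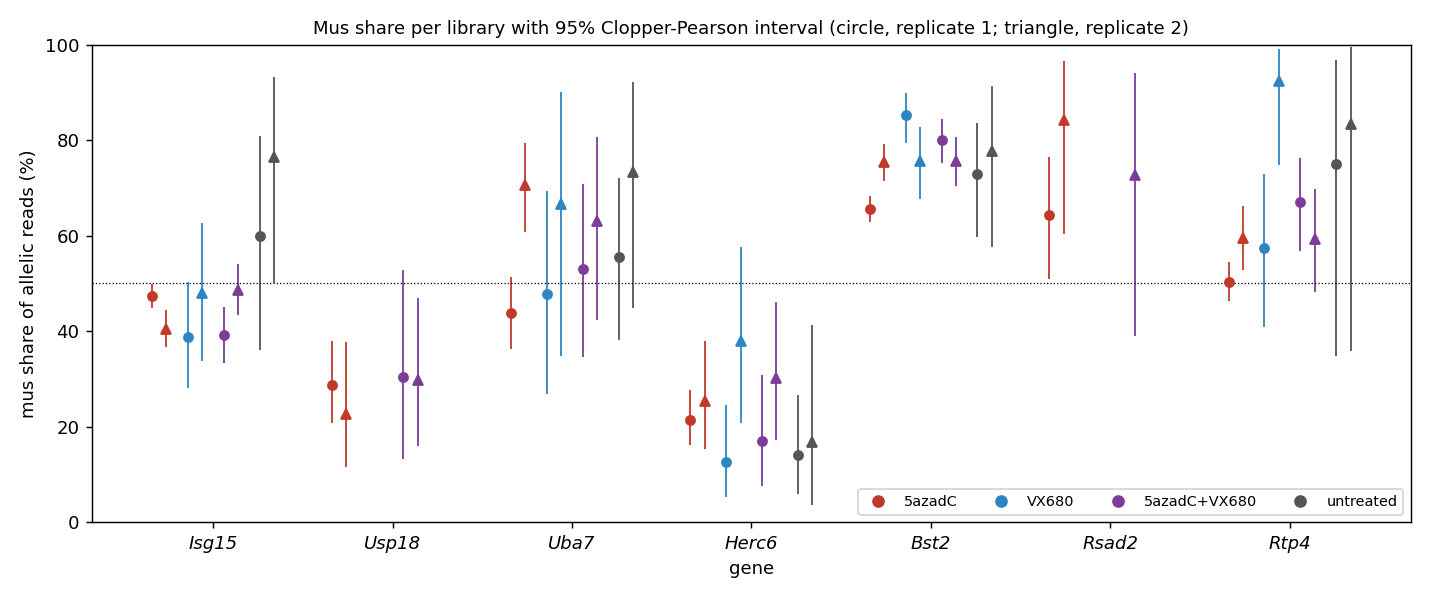
Share of allelic reads assigned to the mus allele (vertical axis, %) in each library with at least 5 such reads, for the 7 genes tested, with 95% Clopper-Pearson intervals; colours are groups, circles replicate 1, triangles replicate 2, and the dotted line 50%. Bst2 lies above 50% in all 8 libraries and Herc6 below 50% in all 8.

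A change of the allele ratio was tested in 2 comparisons, and none of the genes with enough reads was called in either. For 5azadC+VX680 against 5azadC, 0 of 7 genes were called in edgeR, beside 0.136% of all genes, with 1 of 7 at an unadjusted p under 0.05 (Bst2, log2 ratio higher by 0.59 ± 0.25 in edgeR, adjusted p = 0.742). For 5azadC against untreated cells 0 of the 5 genes with enough reads were called, beside 0.282% of all genes, with 1 at an unadjusted p under 0.05 (Isg15, -1.38 ± 0.51 in edgeR, adjusted p = 0.494). Read counts limit this: Isg15 had 37 allelic reads in the untreated libraries in sum.

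The authors' deposited tables of each allele's change list 4 of the 10 genes. In the authors' deposited table for 5azadC against untreated cells, the log2 fold change of Isg15 was 5.58 on the mus and 7.01 on the cas allele, and that of Bst2 3.94 and 4.38. Uba7 stood there at 2.12 and 2.68 and Herc6 at 2.63 and 1.91, so all 4 genes were higher on both alleles. In the authors' deposited table for VX680 Isg15 was listed at 1.47 (their false discovery rate 0.0990) on the mus and 3.04 on the cas allele, and Bst2 at 1.83 and 1.39. For Uba7 that authors' deposited table gives -0.63 and -0.23 and for Herc6 0.99 and 0.16, with false discovery rates between 0.431 and 0.830. For both drugs the authors' deposited table gives 4.04 and 5.56 for Isg15 and 2.94 and 2.79 for Bst2. Uba7 stands in that authors' deposited table at 0.12 and 0.48 and Herc6 at 1.37 and 0.63, with false discovery rates between 0.169 and 0.924.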

How the data were processed

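The 10 genes, the gene lists and the rule for named genes were chosen with earlier results of these data known. The submitters' processing notes name TopHat2 2.0.10, HOMER 4.8, edgeR and the build mm9, without saying what each was used for. The authors deposited raw counts per gene, raw counts per allele, and a normalized signal, which in each library was found to be its raw composite counts multiplied by a constant. Per the file headers, the authors' tables of allelic changes hold log2 fold changes with a p-value and an adjusted value for each. Another 32 per-sample columns (allele sums and per-allele signal) were not used.

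Raw composite counts were tested with edgeR 4.0.16 in R 4.3.3: filterByExpr with its minimum count of 10, TMM, 1 mean per group over all 8 libraries, quasi-likelihood F tests, and Benjamini-Hochberg adjustment over all 12643 genes, called at adjusted p under 0.05. Prior count was 2 for log2 CPM, and RPKM used the deposited gene lengths. Genes with 1 to 3 reads in a group are given as read ratios. Allele counts were fitted in edgeR with 1 term per library and 1 mus term per group over 16 columns; that a group needed 10 allelic reads of a gene for a value was decided after seeing the data. Intervals cover counting error only. The code was tested on simulated data.

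Named genes are all 10 in every comparison, up to 3 per list and comparison by smallest p among those called, and the 6 nearest genes of mean log2 CPM of at least 1. Alternatives were DESeq2 1.42.0, RLE factors, no filter, a replicate block, limma 3.58.1 on log2 of the authors' signal plus 1, fits of the compared groups, allelic minima of 5 and 30, and leaving out each library, where a lone sample is assumed to vary like the other groups. Some listed genes are not reported here. Promoter and protein sequences were not analysed here. Gene overlaps come from GENCODE M21 (GRCm38), another build than mm9.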

Additional observations from a re-analysis of the deposited data

Results flagged for a closer look

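Each of the following was picked out because the effect of 5azadC differed with and without VX680, by the interaction term of the edgeR fit over all 8 libraries. The difference in log2 change, with VX680 minus without it, was -3.69 for Isg15 (adjusted p = 0.000239), -4.45 for Usp18 (adjusted p = 0.00286), -1.61 for Uba7 (adjusted p = 0.0133) and -2.70 for Ube2l6 (adjusted p = 0.00111). For Herc6 it was -1.59 (adjusted p = 0.0254), for Bst2 -2.87 (adjusted p = 3.91e-05), for Rtp4 -3.58 (adjusted p = 0.000649) and for Xaf1 -3.10 (adjusted p = 0.001). For Cmpk2 the adjusted p of the same term was 0.0107, with no fitted value given since untreated cells held 1 read. Without 5azadC replicate 1 the term was -0.95 for Herc6 (adjusted p = 0.0569), -2.96 for Rtp4 and -2.42 for Xaf1.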

How the results depend on the processing

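Counts of the 10 genes called were within 1.5 times the reported ones with DESeq2, RLE factors, no filter, fits of the compared groups and the allelic minima of 5 and 30. With limma on the authors' signal 6 genes fell with 5azadC+VX680 against 5azadC (Usp18, Herc6, Rsad2 and Xaf1 lost, adjusted p = 0.187, 0.0916, 0.295 and 0.162), 1 rose with 5azadC+VX680 against VX680, 9 were higher in 5azadC than in VX680 (Herc6 lost, 0.0616), and the interaction was called for 6 (Uba7, Herc6 and Xaf1 lost, 0.094, 0.161 and 0.0528). That setting moved the median log2 change of all genes to 0.118 for VX680 and 0.117 for both drugs against untreated cells, 0.104 for both against 5azadC and -0.108 for 5azadC against VX680, and changed how many genes rose and fell: 3149 and 1810 with VX680 (3005 and 2829 in the reported fit), 1095 and 805 for both against 5azadC (1262 and 1877), 373 and 641 for 5azadC against VX680 (1180 and 818), and 38 and 73 for both against VX680 (310 and 512; 924 and 1090 with only those groups fitted). All-gene counts for the interaction were 194 and 487, against 626 and 1341. With DESeq2, Rsad2 lost its calls for both drugs against 5azadC (0.268) and VX680 (0.15). The cause was not tested.

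Leaving out each library gave 3 to 7 genes called for VX680 and 7 to 8 for both drugs against untreated cells, 8 to 10 for both against 5azadC, 2 to 7 for both against VX680 and 6 to 9 for the interaction. Allelic calls ranged from 1 to 4 in 5azadC, 2 to 3 in VX680, 1 to 3 in the combination and 1 to 2 in untreated cells. The counts over all genes moved between these fits as well. Uncalled log2 values changed sign for Ube2l6, both against VX680 (-0.53 to 0.012), Herc6 with VX680 (-0.082 to 0.55) and Uba7 with both drugs (-0.060 to 0.41). So did allelic log2 ratios of Uba7 in 5azadC (-0.36 to 1.27) and VX680 (-0.12 to 0.98), and changes for 5azadC+VX680 against 5azadC of Isg15 (-0.31 to 0.26), Uba7 (-0.82 to 0.81), Herc6 (-0.53 to 0.54) and Rsad2 (-1.36 to 0.056) and for 5azadC against untreated cells of Uba7 (-1.07 to 0.56) and Bst2 (-0.60 to 0.077). For Rsad2, with 0 reads in VX680 replicate 1, no change against VX680 is given without replicate 2.

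Correlations of replicate differences between groups lay between -0.0622 and 0.0326 over 12643 genes. Whether libraries with the same replicate number were handled together is not known, and these correlations over all genes cannot settle it. In a fit with a replicate block 10, 6 and 8 of the 10 genes rose with 5azadC, VX680 and both against untreated cells. Of all 12643 genes 2753, 2918 and 3545 rose there. For both against 5azadC 10 fell (1798 of all genes), and for both against VX680 6 rose (293 of all genes). For 5azadC against VX680 10 were higher (1117 of all genes), and the interaction was negative and called for 9 (1251 of all genes).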
